A study of Mus musculus with 37 samples.

Results

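Potassium channel genes were taken as every row of the deposited cerebellar RNA table whose symbol starts with Kcn followed by a letter and whose mean over the 8 RNA libraries was at least 1 FPKM. FPKM is a count of fragments divided by the length of the transcript and by library depth, so levels of different genes can be set side by side. The table held 95 Kcn rows among 29955 gene symbols, and 74 of the 95 met the rule. These 74 members comprise 33 voltage-gated pore subunits, 12 inward rectifiers, 10 channels or subunits of the calcium- and sodium-activated groups, 10 auxiliary subunits and regulators, 8 tandem-pore channels and 1 noncoding RNA, Kcnq1ot1. They fall into 21 subfamilies apart from that RNA. The values just inside the limit were those of Kcna5 (mean 1.14 FPKM), Kcnmb1 (1.07 FPKM) and Kcng3 (1.05 FPKM), and those just outside it were Kcnk6 (0.684 FPKM), Kcng2 (0.676 FPKM) and Kcnk5 (0.543 FPKM).

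Potassium channels let potassium leave or enter cells and so set the resting potential, shape the action potential and limit firing. Voltage-gated channels assemble from 4 pore subunits and open on depolarization. Calcium- and sodium-activated channels follow the intracellular ion, inward rectifiers pass current best near rest, and tandem-pore channels carry a background leak. In the cerebellum, granule neurons, Purkinje cells, interneurons and glia each use their own sets of these channels, and fast-spiking Purkinje cells depend on voltage-gated subunits that close quickly.

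The study deleted Mll4, which encodes a methyltransferase for lysine 4 of histone H3, in the brain of C57BL/6 mice. Mll4 f/f animals without the deletion are called WT here and Mll4 BSKO animals, the brain-specific knockout, are called KO; cerebellum was sampled from both. The comparisons use 3 WT and 3 KO libraries at 1 month and 1 WT library at 4 months, and 1 further library is labelled KO at 4 months. The Cre line behind the deletion is not given in the sources used here, nor whether the libraries within a group stem from different mice. P-values therefore reflect the scatter among these libraries alone, which could be technical.

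Several libraries stood apart or went against their labels. The row Mll2 was read as the targeted gene, since the table also holds Wbp7, another name of its relative Kmt2b. It had values of 18.2, 19.9 and 22.2 FPKM in WT and 12.7, 13.6 and 23.6 FPKM in KO replicates 1, 2 and 3, so by this reading the library labelled KO replicate 3 lay above every WT library. The row Wbp7 was at 14.3, 14.8 and 15.1 FPKM in WT and 7.98, 8.28 and 13.7 FPKM in KO, where that library lay just under the lowest WT library. For 54 of the 74 members that library also lay nearer to the WT mean than to the mean of KO replicates 1 and 2. The library labelled KO at 4 months held markers of forebrain neurons and little of several defining cerebellar markers. Gabra6, a receptor subunit of cerebellar granule neurons, was at 0.118 FPKM there and at 134 FPKM in the WT library of that age. The 10 measured forebrain markers, a list added after values had been seen, summed to 775 FPKM in that library against 46.1 to 77.5 FPKM elsewhere. Its 12 granule neuron markers summed to 328 FPKM, of which 252 FPKM came from Slc17a7, a vesicular glutamate transporter that forebrain neurons also use.

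Among the 1-month libraries, some cell type marker sums lay apart between WT and KO and others overlapped. The 12 granule neuron markers summed to 1591 to 1632 FPKM in the 3 WT libraries, to 270.3 and 272 FPKM in KO replicates 1 and 2, and to 1112 FPKM in the library labelled KO replicate 3. The 10 measured Purkinje cell markers gave 1979 to 2427 FPKM in WT and 542, 482 and 1397 FPKM in KO. In the other direction, 14 brainstem neuron markers summed to 6.33, 6.70 and 32.9 FPKM in WT and to 111, 106 and 61.4 FPKM in KO. The oligodendrocyte sum was 3292, 3196 and 6342 FPKM in WT and 7270, 6818 and 4290 FPKM in KO. The microglial sum was 98.6, 96.9 and 77.4 FPKM in WT and 188, 183 and 239 FPKM in KO, highest in the library labelled KO replicate 3. The sum of 10 astrocyte and Bergmann glia markers was 1077 to 1091 FPKM in WT and 1027 to 1200 FPKM in KO, but its genes moved apart: Gfap was called higher and Slc1a3, Gdf10, Hopx and Fabp7 lower at an adjusted p under 0.10. Inhibitory interneuron markers summed to 641, 595 and 482 FPKM in WT and 300.2, 289 and 465 FPKM in KO, and choroid plexus markers to 738, 705 and 559 FPKM in WT and 213, 205 and 1096 FPKM in KO. All members summed together came to 1427 to 1506 FPKM in WT and 1284 to 1490 FPKM in KO. Fewer cells of a type and less RNA per cell cannot be told apart in such bulk tissue, and this holds for each result that follows. The part of these shifts in the results below was not tested.

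The WT cerebellum at 1 month was led by voltage-gated subunits. Kcna1, a Shaker-type subunit of axons and basket cell terminals, stood at 87.8, 84.9 and 104 FPKM in the 3 WT libraries. Kcnd2, which carries the A-type current of granule neurons, gave 109.9, 107 and 83.5 FPKM. The Shaw-type subunit Kcnc1, of fast-spiking cells, was at 93.7, 96.98 and 78.3 FPKM. The ranges of these 3 genes overlapped, so no order among them holds beyond their spread. Below them came the leak channel Kcnk1 at 73.3, 75.8 and 71.8 FPKM, the Shaker-type Kcna2 at 64.9, 62.6 and 54.4 FPKM and the sodium-activated Kcnt1 at 57.8, 61.3 and 69.01 FPKM. The big-conductance pore Kcnma1 (54.4, 49.8 and 49.98 FPKM), the glial inward rectifier Kcnj10 (54.3, 56.7 and 57.2 FPKM) and the beta subunit Kcnab2 (52.9, 50.96 and 48.96 FPKM) lay between 48.96 and 57.2 FPKM in every WT library. Kcnip4, a calcium-binding partner of A-type channels, was at 52.00, 44.04 and 31.2 FPKM, lowest in replicate 3. Among members with low values, Kcnj14 (0.106, 0.183 and 0.729 FPKM), Kcng1 (0.286, 0.337 and 1.12 FPKM) and Kcnh3 (0.339, 0.270 and 2.14 FPKM) were each highest in WT replicate 3.

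**Figure D1:**
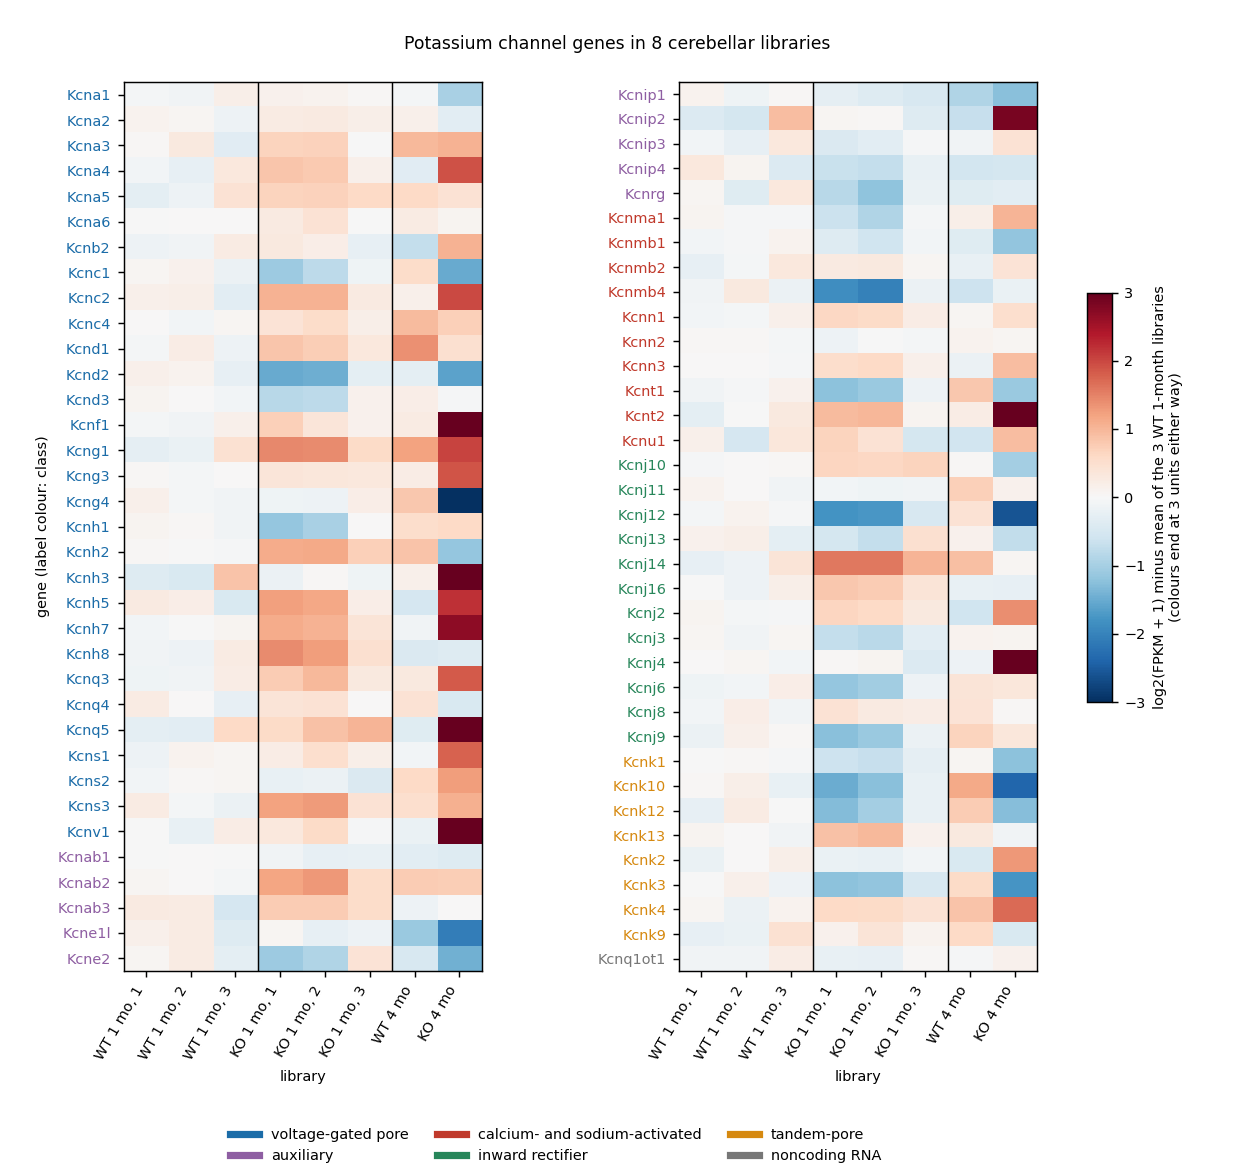
Difference of log2(FPKM + 1) from the mean of the 3 WT libraries of 1 month, for 71 of the 74 members (rows, gene labels coloured by class) in each of the 8 libraries (columns), with colours ending 3 units either way. KO replicates 1 and 2 resemble each other, the library labelled KO replicate 3 is paler, and the library labelled KO at 4 months differs from all others.

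At 1 month, KO against WT asks which channel genes change when Mll4 is deleted. Of 74 members, 69 entered the test; Kcng3, Kcnh3, Kcnj4, Kcns1 and Kcnv1 reach the 1 FPKM limit through the library labelled KO at 4 months alone and were not tested. With limma and Benjamini-Hochberg adjustment over 14847 genes, 0 of 69 members passed an adjusted p of 0.05 in either direction, where 0.0135% of all genes passed in each direction. At an unadjusted p under 0.05 there were 25 members higher and 17 lower, against 14.0% and 17.2% of all genes. At an adjusted p under 0.10, the threshold used below for a called gene, 15 members rose, against 7.97% of all genes, and 6 fell, against 8.07% of all genes. Groups did not overlap in 24 members that were higher in KO, against 15.2% of all genes, and in 13 that were lower, against 20.5%. Kcng1, Kcnh8, Kcnk4, Kcnj14 and Kcna5 are in each of these counts of higher members at unadjusted p, at 0.10 and without overlap. They passed the filter only through KO, where they are high, so part of those counts was fixed by the filter. With all libraries shifted to 1 median the called members were 20 higher and 4 lower, for which the share of all genes is not given here. The median log2 difference was 0.12 over the members and -0.04 over all genes, and the median size regardless of sign was 0.54 over the members and 0.25 over all genes.

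The calls at 1 month rest on which libraries enter. Without the library labelled KO replicate 3, 24 members were higher and 19 lower of 68 at an adjusted p under 0.05, where 14.2% and 19.9% of all genes were called. At 0.10 these became 28 higher and 21 lower, against 19.0% and 26.0% of all genes. Kcnf1, Kcng1, Kcnh8 and Kcnj14, with a WT mean under 1 FPKM, are among the higher members at both thresholds, so the filter fixed part of these counts. Leaving out WT replicate 1, WT replicate 2, KO replicate 1 or KO replicate 2 left 0 calls at 0.10 in either direction, and leaving out WT replicate 3 left 6 higher and 0 lower. For these fits the share of all genes called is not given here. Of the 69 tested members, 6 had a WT mean under 1 FPKM (Kcnf1, Kcng1, Kcnh8, Kcnk4, Kcnj14 and Kcna5) and so entered through KO, and 5 of these were called; among the 63 with a WT mean of at least 1 FPKM, 10 were called higher and 6 lower and the median difference was -0.03.

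**Figure D2:**
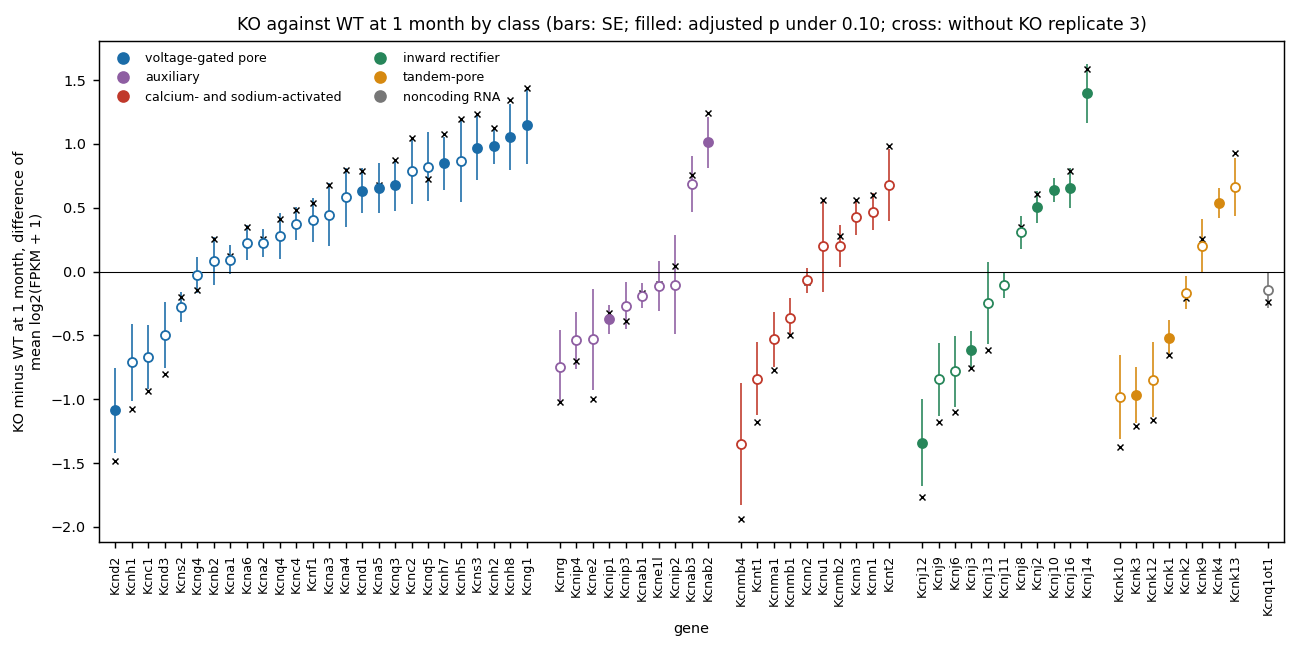
Log2 difference between KO and WT at 1 month with its standard error from limma (vertical axis, log2(FPKM + 1) units) for tested members (horizontal axis, ordered and coloured by class), filled where called at an adjusted p under 0.10, and with a cross for the value without the library labelled KO replicate 3. Called members lie on both sides of 0, from -1.34 for Kcnj12 to 1.40 for Kcnj14, which entered through KO.

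Voltage-gated pore subunits gave 9 members that rose and 1 that fell among 29 tested, against 7.97% and 8.07% of all genes. Without the 4 that entered through KO (Kcna5, Kcnf1, Kcng1 and Kcnh8), 6 rose and 1 fell among 25. Of these 25 differences 18 were positive and 7 negative, where 55.2% of all genes were negative. Their median was 0.28, compared with -0.04 over all genes. Without the library labelled KO replicate 3, 15 of the 29 were higher and 4 lower at an adjusted p under 0.05, against 14.2% and 19.9% of all genes. These 29 take in the 4 that entered through KO. Kcnh2, the ether-a-go-go-related channel that also repolarizes the heart, was at 12.8, 12.4 and 12.2 FPKM in WT and 28.1, 28.6 and 20.96 FPKM in KO (log2 difference 0.98, SE 0.14, adjusted p = 0.0612). All KO libraries lay above all WT libraries, and the library labelled KO replicate 3 was the lowest of the KO group. Its relative Kcnh7 was at 4.93, 5.26 and 5.71 FPKM in WT and 12.7, 11.9 and 7.22 FPKM in KO (log2 difference 0.85, SE 0.21, adjusted p = 0.0760). The more distant ELK-type Kcnh8, which entered through KO, was at 0.796, 0.726 and 1.28 FPKM in WT and 4.16, 3.58 and 1.68 FPKM in KO (log2 difference 1.05). Neither gene's groups overlapped, which for Kcnh8 is a description. The EAG-type Kcnh1 did not pass, with 13.9, 13.5 and 12.2 FPKM in WT and 5.32, 6.21 and 13.3 FPKM in KO (log2 difference -0.71, SE 0.30, adjusted p = 0.162). The library labelled KO replicate 3 lay inside the WT range. The brainstem marker sum was highest, like most of the genes that rose, in KO replicates 1 and 2, and its part in these rises was not tested.

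Silent subunits, which form no channel alone but alter those of other voltage-gated subunits, were among the members that rose. Kcng1 entered through KO, so its values are a description, at 0.286, 0.337 and 1.12 FPKM in WT and 3.20, 3.13 and 1.27 FPKM in KO (log2 difference 1.15). Kcns3 was at 1.92, 1.34 and 1.16 FPKM in WT and 4.64, 4.90 and 2.31 FPKM in KO (log2 difference 0.97, SE 0.25, adjusted p = 0.0797). In both genes every KO library exceeded every WT library, by least in the library labelled KO replicate 3, which for Kcng1 is a description. Another silent subunit, Kcng4, was not called, at 30.3, 26.1 and 25.2 FPKM in WT and 24.5, 24.3 and 31.5 FPKM in KO (log2 difference -0.03, SE 0.14, adjusted p = 0.905). The silent Kcns2 was not called either, at 2.66, 3.02 and 3.04 FPKM in WT and 2.33, 2.48 and 1.88 FPKM in KO (log2 difference -0.28, SE 0.12, adjusted p = 0.159). Every KO library of Kcns2 lay below every WT library. Kcnf1, also silent, entered through KO and was not called (log2 difference 0.40). The M-current subunit Kcnq3 rose, from 10.5, 10.6 and 13.6 FPKM to 20.3, 23.7 and 14.2 FPKM (log2 difference 0.68, SE 0.20, adjusted p = 0.0957).

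The 2 measured A-type subunits with calls moved in opposite directions. Kcnd2 fell, from 109.9, 107 and 83.5 FPKM in WT to 34.4, 35.2 and 80.9 FPKM in KO (log2 difference -1.09, SE 0.34, adjusted p = 0.0984), and the low-level Kcnd1 rose, from 1.23, 1.72 and 1.07 FPKM to 3.12, 2.90 and 1.91 FPKM (log2 difference 0.63, SE 0.18, adjusted p = 0.0870). KO replicates 1 and 2 of Kcnd2 held less than any WT library, and the library labelled KO replicate 3 lay just under the lowest WT library. With libraries shifted to 1 median the adjusted p of Kcnd2 was 0.102, no longer a call, and with quantile normalization Kcnd2, Kcnd1, Kcna5 and the partner subunit Kcnip1 had adjusted p of 0.118, 0.116, 0.105 and 0.166. The granule neuron marker sum was also lowest in KO replicates 1 and 2, and its part in the fall of Kcnd2 was not tested. The third Kcnd gene, Kcnd3, was at 24.1, 22.96 and 21.5 FPKM in WT and 12.4, 12.8 and 24.97 FPKM in KO (log2 difference -0.50, SE 0.26, adjusted p = 0.234), where the library labelled KO replicate 3 exceeded all WT libraries. Of the Shaker-type genes, all 6 had positive differences and Kcna5 alone was called. Kcna5 entered through KO, so its values are a description, at 0.309, 0.446 and 1.19 FPKM in WT and 1.55, 1.60 and 1.45 FPKM in KO (log2 difference 0.66). Kcna1, the member with the highest mean over the 8 libraries, was at 101, 99.2 and 94.3 FPKM in KO (log2 difference 0.09, SE 0.12, adjusted p = 0.602). Neither of the Shaw-type genes Kcnc1 and Kcnc2 was called, with Kcnc1 at 41.3, 51.4 and 81.4 FPKM in KO (log2 difference -0.67, SE 0.25, adjusted p = 0.131) and Kcnc2 at 9.42, 9.49 and 6.45 FPKM in WT and 18.3, 18.3 and 10.2 FPKM in KO (log2 difference 0.79, SE 0.25, adjusted p = 0.105).

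Among 10 auxiliary subunits and regulators, 1 rose and 1 fell, near the 7.97% and 8.07% of all genes called, and 8 of the 10 differences were negative, against 55.2% of all genes. Kcnab2, a cytoplasmic beta subunit of Shaker-type channels, rose from 52.9, 50.96 and 48.96 FPKM in WT to 118, 126 and 75.2 FPKM in KO (log2 difference 1.01, SE 0.20, adjusted p = 0.0649). It was the most abundant member that rose, and all KO libraries were above all WT libraries. Kcnab3, another beta subunit, was at 19.9, 19.5 and 11.3 FPKM and 28.5, 28.4 and 24.5 FPKM (log2 difference 0.69, SE 0.22, adjusted p = 0.104), and Kcnab1 at 44.2, 45.5 and 44.6 FPKM and 41.5, 37.9 and 38.2 FPKM (log2 difference -0.19, SE 0.10, adjusted p = 0.228). Kcnip1, a calcium sensor that binds A-type channels, fell from 20.1, 17.04 and 19.3 FPKM to 15.5, 14.2 and 13.2 FPKM (log2 difference -0.37, SE 0.12, adjusted p = 0.0984). Its groups did not overlap, and here the library labelled KO replicate 3 was the lowest of all. With libraries shifted to 1 median its adjusted p was 0.157, no longer a call. All 4 Kcnip differences were negative. Kcnip1 shares its locus with Kcnmb1, and Kcnab2 overlaps Nphp4; since the strand setting is not given in the sources used here, reads of overlapping genes cannot be told apart.

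No member of the calcium- and sodium-activated group was called, with 2 of 10 higher and 3 lower at an unadjusted p under 0.05, against 14.0% and 17.2% of all genes. Kcnmb4, the neuronal beta subunit of big-conductance channels, had the lowest fitted difference of any member, with 35.2, 46.96 and 33.9 FPKM in WT and 9.84, 8.69 and 33.8 FPKM in KO (log2 difference -1.35, SE 0.48, adjusted p = 0.120). The library labelled KO replicate 3 lay just under the lowest WT library and far above the other KO libraries. The pore Kcnma1 was at 32.7, 27.1 and 49.4 FPKM in KO (log2 difference -0.53, SE 0.22, adjusted p = 0.152), and the sodium-activated Kcnt1 at 25.9, 28.4 and 55.7 FPKM (log2 difference -0.84, SE 0.28, adjusted p = 0.113). The small-conductance gene Kcnn2 was at 17.6, 17.7 and 16.6 FPKM in WT and 15.5, 17.1 and 16.7 FPKM in KO (log2 difference -0.07, SE 0.10, adjusted p = 0.659). Without the library labelled KO replicate 3, 3 genes of the group were higher and 4 lower at an adjusted p under 0.05, against 14.2% and 19.9% of all genes. Kcnmb4 was among the lower ones (log2 difference -1.94, adjusted p = 0.00177).

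Of 11 tested inward rectifiers, 4 rose and 2 fell, or 3 and 2 without Kcnj14, which entered through KO. Of all genes 7.97% were called higher and 8.07% lower. Kcnj12, a strong rectifier of the resting potential, fell from 35.02, 39.1 and 35.7 FPKM in WT to 9.92, 10.2 and 25.8 FPKM in KO (log2 difference -1.34, SE 0.34, adjusted p = 0.0802). Its relative Kcnj2 rose from 2.18, 1.87 and 1.94 FPKM to 3.64, 3.49 and 2.69 FPKM (log2 difference 0.51, SE 0.13, adjusted p = 0.0779). Kcnj14, another relative, was at 0.106, 0.183 and 0.729 FPKM in WT and 2.94, 2.96 and 1.66 FPKM in KO (log2 difference 1.40). WT and KO ranges lay apart in each of the 3 genes, which for Kcnj14 is a description. The glial pair, Kcnj10 and its partner Kcnj16, rose together. Kcnj10, which clears extracellular potassium in astrocytes and oligodendrocytes, was at 54.3, 56.7 and 57.2 FPKM in WT and 88.2, 86.2 and 89.4 FPKM in KO (log2 difference 0.64, SE 0.09, adjusted p = 0.0612). Kcnj16 was at 8.62, 7.70 and 10.1 FPKM and 16.1, 15.6 and 11.8 FPKM (log2 difference 0.66, SE 0.16, adjusted p = 0.0755). Among the called members that rose, Kcnj10 was the only one in which the library labelled KO replicate 3 was the highest of the KO group. Beside them, the astrocyte and Bergmann glia sum overlapped between groups, with 1 of its 10 markers called higher and 4 lower, while the oligodendrocyte sum was higher in KO replicates 1 and 2 than in any WT library. In the library labelled KO replicate 3 the oligodendrocyte sum was 4290 FPKM, below the 6342 FPKM of WT replicate 3. The part of either sum in the rises of Kcnj10 and Kcnj16 was not tested. The G-protein-gated Kcnj3 fell, from 48.5, 42.9 and 48.8 FPKM to 28.1, 26.3 and 37.00 FPKM (log2 difference -0.61, SE 0.15, adjusted p = 0.0776). Its partners did not pass, Kcnj6 at 24.5, 25.7 and 31.4 FPKM and 11.6, 12.5 and 24.4 FPKM (log2 difference -0.78, SE 0.28, adjusted p = 0.120) and Kcnj9 at 26.3, 33.05 and 30.4 FPKM and 12.01, 13.2 and 26.3 FPKM (log2 difference -0.84, SE 0.29, adjusted p = 0.114).

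Tandem-pore channels gave 1 member that rose, Kcnk4, which entered through KO, and 2 that fell among 8, against 7.97% and 8.07% of all genes. The acid-sensitive leak channel Kcnk3 fell from 16.2, 18.3 and 14.6 FPKM in WT to 6.35, 6.62 and 11.4 FPKM in KO (log2 difference -0.97, SE 0.22, adjusted p = 0.0717), and the weakly rectifying Kcnk1 from 73.3, 75.8 and 71.8 FPKM to 47.5, 45.5 and 61.4 FPKM (log2 difference -0.52, SE 0.14, adjusted p = 0.0824). Every KO library lay below every WT library in both. Kcnk4, a mechanically gated channel, is given as a description, at 0.727, 0.461 and 0.765 FPKM in WT and 1.49, 1.45 and 1.23 FPKM in KO (log2 difference 0.54). The mechanically gated Kcnk10 had a larger difference than Kcnk3 or Kcnk1 but was not called, at 39.8, 44.4 and 33.2 FPKM and 13.1, 15.8 and 33.4 FPKM (log2 difference -0.99, SE 0.33, adjusted p = 0.111). Kcnk9, the acid-sensitive relative of Kcnk3 in granule neurons, was at 25.2, 26.2 and 41.8 FPKM in WT and 32.98, 39.7 and 32.4 FPKM in KO (log2 difference 0.20, SE 0.21, adjusted p = 0.540). The 1 noncoding member, Kcnq1ot1, which overlaps Kcnq1, was at 7.83, 7.80 and 10.04 FPKM and 7.15, 6.96 and 8.77 FPKM (log2 difference -0.15, SE 0.14, adjusted p = 0.510).

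**Figure D3:**
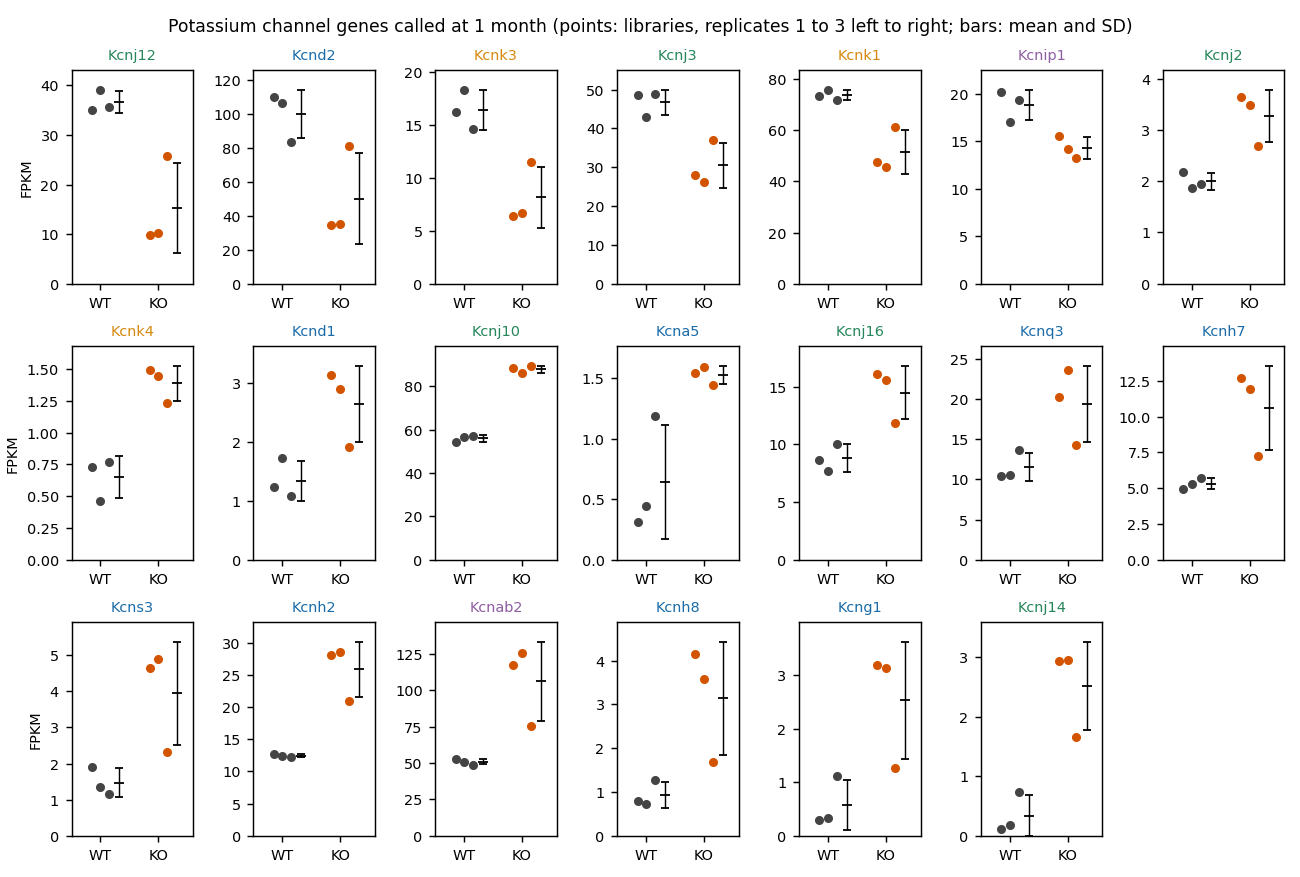
FPKM (vertical axes, from 0) in each of the 3 WT and 3 KO libraries of 1 month for 20 of the 21 called members, with bars for the mean and SD of 3 libraries. In KO the third point, the library labelled KO replicate 3, lies nearest to the WT mean in every panel but those of Kcnip1 and Kcnj10.

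Promoter sequence of 4 called members is shown as reference for genes that moved in both directions. RefSeq sequence (GRCm38.p6) was matched by symbol for 54 of the 74 members, in 78 windows of 250 bases upstream of a start. The GC box GGGCGG, or its complement CCGCCC on the other strand, is in capitals. Kcnj12 (chr11:61065554-61065803, plus strand) fell and holds 0 GC boxes, and Kcnd2 (chr6:21215096-21215345, plus strand) fell and holds 1. Kcnab2 (chr4:152477550-152477799, minus strand, the first of 3 starts) rose and holds 1, and Kcnj10 (chr1:172340960-172341209, plus strand) rose and holds 2.
Kcnj12: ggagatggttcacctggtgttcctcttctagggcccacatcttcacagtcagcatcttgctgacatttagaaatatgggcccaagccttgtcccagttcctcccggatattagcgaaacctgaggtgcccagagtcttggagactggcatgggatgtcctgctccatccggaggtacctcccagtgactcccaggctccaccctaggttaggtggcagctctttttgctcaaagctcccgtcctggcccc
Kcnd2: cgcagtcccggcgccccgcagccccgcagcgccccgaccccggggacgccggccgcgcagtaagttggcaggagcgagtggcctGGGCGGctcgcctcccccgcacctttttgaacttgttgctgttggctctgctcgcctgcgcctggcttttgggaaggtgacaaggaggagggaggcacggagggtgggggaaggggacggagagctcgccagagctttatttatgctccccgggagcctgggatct
Kcnab2: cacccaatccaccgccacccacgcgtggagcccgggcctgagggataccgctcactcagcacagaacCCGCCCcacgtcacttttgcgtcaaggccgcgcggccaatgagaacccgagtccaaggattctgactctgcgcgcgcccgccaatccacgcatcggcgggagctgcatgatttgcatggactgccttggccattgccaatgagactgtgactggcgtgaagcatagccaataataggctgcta
Kcnj10: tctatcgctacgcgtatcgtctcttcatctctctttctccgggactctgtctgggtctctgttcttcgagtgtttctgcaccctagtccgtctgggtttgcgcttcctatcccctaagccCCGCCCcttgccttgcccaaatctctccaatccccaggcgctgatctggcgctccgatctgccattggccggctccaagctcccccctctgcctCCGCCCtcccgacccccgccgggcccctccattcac
The GC box occurs on either strand in 43.6% of the 78 member windows and in 32.7% of all 32851 windows. The E-box CAGATG or its complement CATCTG, a site of the NeuroD and atonal-type factors, occurs in 15.4% of member windows and 14.4% of all, and in none of the 4 windows shown. The median number of CG dinucleotides is 8 per member window and 6 over all windows. These shares describe the letters and were not set against expression.

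Proteins that assemble with or share the membrane with these channels were counted from a list of 28 partners, of which 27 were tested. In KO at 1 month 2 rose and 2 fell, near the 7.97% and 8.07% of all genes called, and 11 of 27 differences were positive, with a median of -0.17. Hcn2, a pacemaker channel for mixed cations, rose from 51.95, 54.5 and 30.7 FPKM to 109, 114 and 79.6 FPKM (log2 difference 1.15, SE 0.25, adjusted p = 0.0691), and Hcn4 rose at low levels, from 1.84, 2.42 and 1.92 FPKM to 3.27, 3.35 and 2.71 FPKM (log2 difference 0.43, SE 0.12, adjusted p = 0.0935). Dpp10, an auxiliary subunit of A-type channels, fell from 46.4, 45.2 and 43.2 FPKM to 28.3, 27.1 and 31.4 FPKM (log2 difference -0.62, SE 0.10, adjusted p = 0.0640). Rgs7, a regulator of G-protein signalling to Kcnj3-type channels, fell from 33.6, 29.9 and 26.03 FPKM to 21.03, 19.2 and 22.99 FPKM (log2 difference -0.48, SE 0.13, adjusted p = 0.0869). Groups did not overlap in any of these 4 genes. The sums over the list were 1170 to 1226 FPKM in WT and 1148 to 1177 FPKM in KO.

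WT at 4 months was next set against WT at 1 month, which uses the same 3 WT libraries as the genotype comparison. The single 4-month library was assumed to vary like those of 1 month. Of the 74 members 62 were tested, and 0 passed an adjusted p of 0.05, where 0.0951% of 14714 genes passed as higher and 0.0272% as lower. At an unadjusted p under 0.05 there were 19 higher and 4 lower, against 13.1% and 21.2% of all genes. At an adjusted p under 0.10, 15 members were called higher, against 9.15% of all genes, and 3 lower, against 14.8% of all genes. Without Kcng1, which had a 1-month mean under 1 FPKM, 14 were called higher. The 4-month value lay above the 1-month range in 35 members, against 29.4% of all genes, and below it in 18, against 47.4%. Over all genes the median log2 difference was -0.13, a shift common to the comparison, and over the members it was 0.16. After all libraries were shifted to 1 median, 19 members were higher and 1 lower. Leaving out WT replicate 1 or WT replicate 2 left 0 calls at 0.10, and leaving out WT replicate 3 gave 24 higher and 12 lower. The shares of all genes called after the shift and with libraries left out are not given here. Those counts therefore show how the calls depend on scaling and libraries, and are no result about the members. Oligodendrocyte markers summed to 2143 FPKM at 4 months against 3196 to 6342 FPKM at 1 month, granule neuron markers to 1169 against 1591 to 1632 FPKM, Purkinje cell markers to 1420 against 1979 to 2427 FPKM, and brainstem markers to 46.5 against 6.33 to 32.9 FPKM. Their part in the age differences was not tested.

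Among 26 voltage-gated subunits tested with age, 19 differences were positive and 7 negative, where 59.8% of all genes were negative. The median of the class was 0.46, against -0.13 over all genes. The 4-month value lay below the 1-month range in 6 of the 26, against 47.4% of all genes. The lowest was Kcnb2, a delayed rectifier, at 4.24, 4.37 and 5.92 FPKM at 1 month and 2.52 FPKM at 4 months (log2 difference -0.72, SE 0.21, adjusted p = 0.101). With quantile normalization it was called lower (adjusted p = 0.0990), and without WT replicate 3 Kcnb2, Kcnd2 and Kcnh5 were called lower, by limma as well. Kcnd1, an A-type subunit, rose from 1.23, 1.72 and 1.07 FPKM at 1 month to 5.03 FPKM at 4 months (log2 difference 1.38, SE 0.20, adjusted p = 0.0614), and the 4-month library held 3.76 times the mean of 1 month. Kcnc4, a Shaw-type subunit, rose from 12.1, 11.3 and 12.6 FPKM to 24.1 FPKM (log2 difference 0.96, SE 0.14, adjusted p = 0.0614), and Kcnh2 from 12.8, 12.4 and 12.2 FPKM to 23.2 FPKM (log2 difference 0.84, SE 0.13, adjusted p = 0.0614). The silent subunit Kcng4 rose from 30.3, 26.1 and 25.2 FPKM to 48.4 FPKM (log2 difference 0.81, SE 0.16, adjusted p = 0.0640). Kcna3, Kcng1, Kcnh1 and Kcns2 also rose, with log2 differences of 0.97, 1.20, 0.52 and 0.59. Kcng1 entered this test with a mean under 1 FPKM at 1 month, and without it the median of the class was 0.43. In a fit of all 8 libraries with additive terms for age and genotype, which takes in the library labelled KO at 4 months, the age differences of Kcnh2 and Kcng4 were -0.65 and -1.42, and that of Kcnk10, described next, was -0.13. Kcnc1 (131 FPKM at 4 months, log2 difference 0.55, SE 0.18, adjusted p = 0.117) lay above the 1-month range without a call.

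Outside that class, the leak channel Kcnk10 rose from 39.8, 44.4 and 33.2 FPKM to 87.03 FPKM (log2 difference 1.14, SE 0.20, adjusted p = 0.0628). Sodium-activated Kcnt1 rose from 57.8, 61.3 and 69.01 FPKM to 110.5 FPKM (log2 difference 0.81, SE 0.16, adjusted p = 0.0633), and Kcnab2 from 52.9, 50.96 and 48.96 FPKM to 86.9 FPKM (log2 difference 0.76, SE 0.13, adjusted p = 0.0617). Kcnj11, the pore of ATP-sensitive channels, rose from 15.1, 14.1 and 12.9 FPKM to 23.8 FPKM (log2 difference 0.73, SE 0.15, adjusted p = 0.0661). Its regulatory partner Abcc8, a sulfonylurea receptor, rose as well, from 20.4, 22.1 and 18.9 FPKM to 50.8 FPKM (log2 difference 1.27, SE 0.15, adjusted p = 0.0614). G-protein-gated Kcnj9 rose from 26.3, 33.05 and 30.4 FPKM to 47.9 FPKM (log2 difference 0.67, SE 0.18, adjusted p = 0.0862). In each of these 6 genes the 4-month value exceeded every 1-month value.

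The 3 members that fell with age were 2 auxiliary genes and 1 inward rectifier. Kcnip1 fell from 20.1, 17.04 and 19.3 FPKM to 9.61 FPKM (log2 difference -0.90, SE 0.16, adjusted p = 0.0616) and Kcne1l, a single-pass beta subunit, from 6.92, 7.41 and 4.41 FPKM to 2.31 FPKM (log2 difference -1.10, SE 0.30, adjusted p = 0.0873). Kcnj2 fell from 2.18, 1.87 and 1.94 FPKM to 0.991 FPKM (log2 difference -0.59, SE 0.14, adjusted p = 0.0729). All 3 lay below the 1-month range, and Kcnip1 alone was still called lower once libraries were shifted to 1 median. Of the auxiliary members 9 of 10 had negative differences, with a median of -0.42 (8 of 10 negative after that shift), whereas 6 of 7 tandem-pore differences were positive, with a median of 0.57. Over all genes 59.8% of differences were negative. The partners were called about as often as all genes, of which 9.15% were called higher and 14.8% lower. Of 27, 3 rose, Abcc8, Amigo1 (an adhesion protein, log2 difference 0.84, SE 0.17, adjusted p = 0.0633) and Cntn2 (an axonal protein of juxtaparanodes, log2 difference 0.45, SE 0.13, adjusted p = 0.0957), and 3 fell, Vapa (log2 difference -0.89, SE 0.14, adjusted p = 0.0614), Dpp6 (log2 difference -0.66, SE 0.14, adjusted p = 0.0670) and Lgi1 (log2 difference -0.57, SE 0.15, adjusted p = 0.0870). Vapa is an endoplasmic reticulum protein of membrane contact sites, Dpp6 an A-type channel subunit and Lgi1 a secreted synaptic protein.

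**Figure D4:**
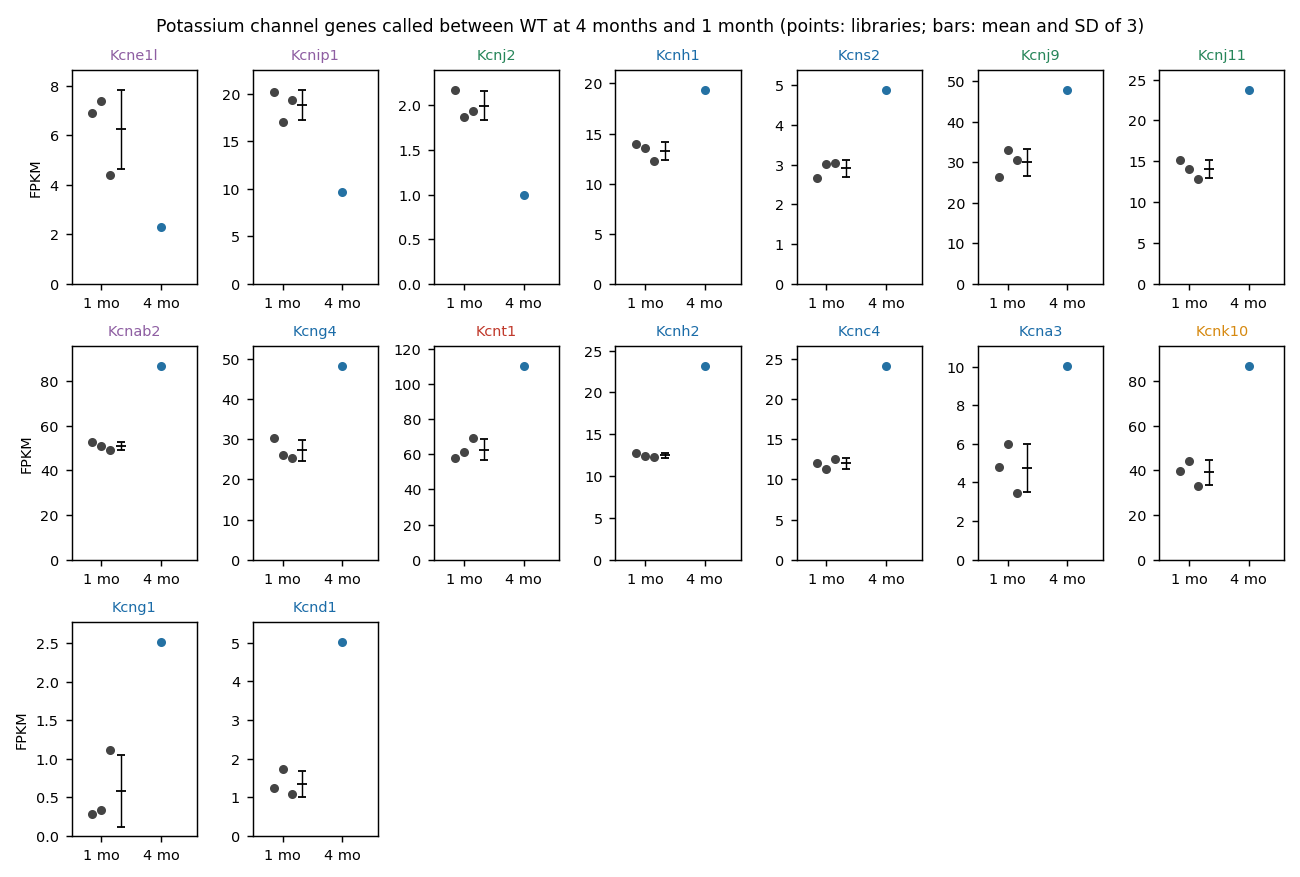
FPKM (vertical axes, from 0) in the 3 WT libraries of 1 month, with bars for their mean and SD, and in the 1 WT library of 4 months, for 16 of the 18 members called at an adjusted p under 0.10. The 4-month point lies outside the 1-month points in each panel.

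Because both comparisons rest on the same 1-month WT libraries, their values are given side by side without a test of likeness. Kcnj2 was at 3.64, 3.49 and 2.69 FPKM in KO at 1 month and at 0.991 FPKM in WT at 4 months, on either side of its 1-month WT range. For Kcnk10 the KO libraries held 13.1, 15.8 and 33.4 FPKM and the 4-month WT library 87.03 FPKM, again on either side of the WT values of 39.8, 44.4 and 33.2 FPKM, apart from the library labelled KO replicate 3, which lay inside them.

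At 4 months each genotype had 1 library, so no test of that pair was run and differences past 2 log2 units, which is 4-fold, are given as a description of 2 libraries. Since the library labelled KO carried forebrain markers and little of several cerebellar ones, its values are those of that library and no genotype effect is drawn from them. Genes named here were chosen after their values were seen. Of 71 members with a mean of at least 1 FPKM over both libraries, 11 were past 2 log2 units higher, against 2.33% of 14791 genes, and 8 lower, against 2.50%. Kcnj4, Kcnv1 and Kcnh3 are among the 11 and reach the 1 FPKM limit only through the library labelled KO, where they are high. The filter thus fixed part of that count, and its excess over 2.33% is no result about the members. The highest were Kcnj4, a strong rectifier of forebrain neurons, at 0.412 FPKM in WT and 45.2 FPKM in the other library, Kcnv1, a silent subunit, at 0.165 and 33.6 FPKM, and Kcnf1, another silent subunit, at 1.13 and 40.3 FPKM. Kcnh3 (0.942 and 28.8 FPKM), Kcnq5 (1.35 and 27.7 FPKM), Kcnt2 (1.65 and 30.8 FPKM) and Kcnip2 (1.82 and 31.96 FPKM), a partner of A-type channels, followed. In the other direction Kcng4 was at 48.4 FPKM in WT and 1.18 FPKM in the other library, Kcnk10 at 87.03 and 6.61 FPKM, and Kcnj12 at 49.6 and 5.22 FPKM. In WT at 1 month the first 7 of these genes were at most 7.69 FPKM in any library, and the last 3 were at least 25.2 FPKM in every library.

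The genotype difference at 4 months minus that at 1 month was tested with limma in all 8 libraries and 1 mean per group. It passed an adjusted p of 0.05 upward in 15 of 74 members, against 6.13% of 14918 genes, and downward in 7, against 5.42%. Kcng3, Kcnh3, Kcnj4, Kcns1 and Kcnv1 passed the filter through the library labelled KO at 4 months, where they were high, and without them 10 of 69 passed upward and 7 downward. All of it rests on the library labelled KO at 4 months, and what part of it belongs to genotype and what part to the tissue in that library cannot be told apart. Kcnj10 had a log2 difference of 0.64 at 1 month and of -1.07 at 4 months, with 57.8 FPKM in WT and 26.97 FPKM in the library labelled KO. For Kcnh2 the 1-month difference was 0.98, and the 4-month libraries held 23.2 FPKM in WT and 5.04 FPKM in the other.

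**Figure D5:**
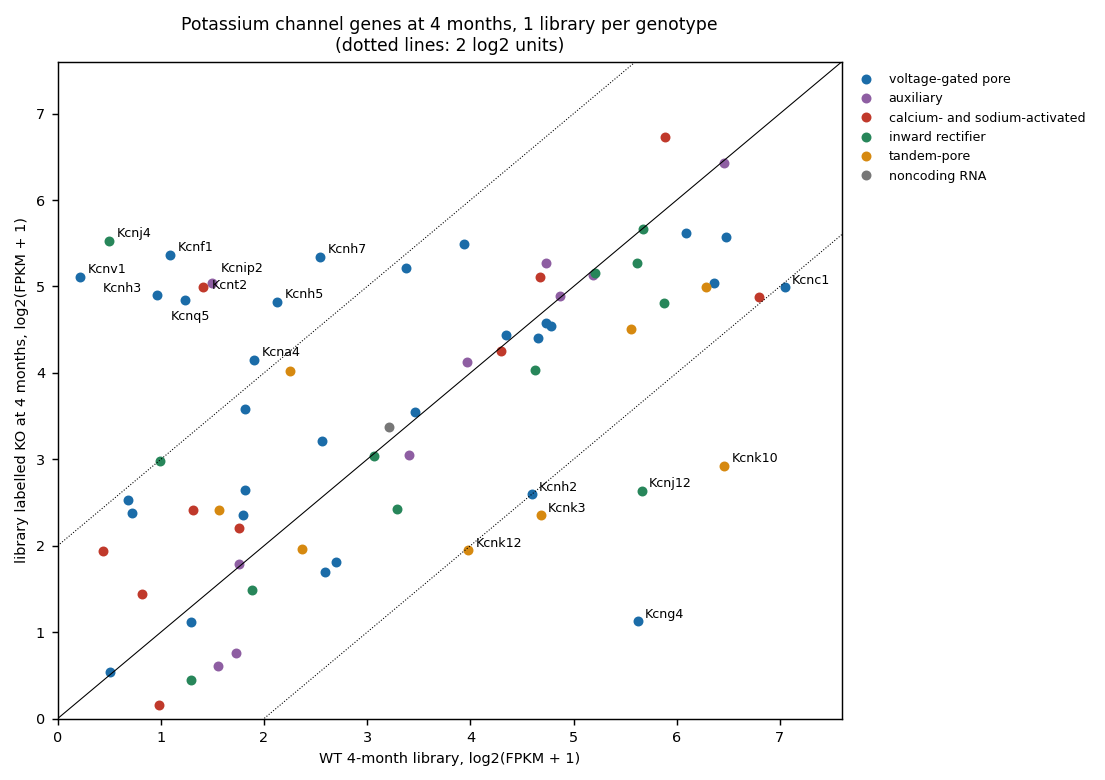
Log2(FPKM + 1) of 71 of the 74 members in the library labelled KO at 4 months (vertical axis) against the WT library of 4 months (horizontal axis), coloured by class, with 1 library per axis, a line of equality and dotted lines at 2 log2 units. Kcnj4, Kcnv1, Kcnf1, Kcnh3 and Kcnip2 lie above the upper dotted line and Kcng4, Kcnk10 and Kcnj12 below the lower one.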

How the data were processed

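RNA of 8 cerebellar libraries was used; the other 29 samples of the series, chromatin immunoprecipitation and its inputs, were not analysed here. The authors deposited 1 table of FPKM values with a column per library, made with TopHat2 2.1.0, Bowtie 1.1.2 and Cuffdiff on genome build mm9, per the submitters' processing notes. Annotation, strand setting and further scaling were not given in the sources used here. Columns were matched to samples through their titles, and 1 row that repeated column names was removed. FPKM values are not read counts, so absolute depth is unknown and no counting interval is given. Depth relative to WT replicate 1, estimated from the steps of low values, ran from 0.732 to 1.2, and 19570 to 20433 genes had a value above 0.

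Tests used limma 3.58.1 in R 4.3.3 on log2(FPKM + 1), which understates the change of low genes, with genes of a mean of at least 1 FPKM over the libraries of the fit and Benjamini-Hochberg adjustment over all genes tested. Two-sided thresholds were 0.05 and, as a second threshold, 0.10. KO was compared with WT in the 6 libraries of 1 month with genotype as the only term, and WT of 4 months with WT of 1 month in 4 libraries, where 2 residual degrees of freedom remain. The code was checked on simulated data. Alternatives were other pseudocounts, filters, scalings and designs and leaving out each library. The members and lists were chosen with earlier results of these data known. Named genes were those with the highest levels overall or in a subfamily, the largest called differences with non-overlapping groups and 2 FPKM or more in the group with higher values, and those beside the 1 FPKM limit; other members were named after their values were seen. Some members enter the fits, counts and sums but are not reported here by name or in figures. Promoter windows and overlaps came from RefSeq tables of GRCm38.p6, a build other than mm9, matched by symbol.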

Additional observations from a re-analysis of the deposited data

Results flagged for a closer look

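In 22 members the difference between the 2 single libraries of 4 months was not that between KO and WT at 1 month, by limma's test of the difference of differences on log2(FPKM + 1) with Benjamini-Hochberg adjustment under 0.05. No genotype effect at 4 months is drawn from this. Each value below is the 4-month difference minus the 1-month difference. All rest on the 1 library labelled KO at 4 months, in which forebrain markers summed to 775 FPKM and Gabra6 stood at 0.118 FPKM. The part of that library's tissue in these values was not tested.

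Upward values were found in 15 of 74 members, of which 14 are given, against 6.13% of 14918 genes. For 5 of them the mean of the other 7 libraries was under 1 FPKM, so that they entered the test through the library labelled KO at 4 months, and their values are a description with no test. These were 5.13 for the inward rectifier Kcnj4, 4.61, 1.55 and 1.32 for the silent subunits Kcnv1, Kcns1 and Kcng3, and 4.03 for the pore subunit Kcnh3. Other silent voltage-gated subunits gave 3.87 for Kcnf1 (adjusted p = 0.00339) and 0.94 for Kcns2 (adjusted p = 0.0490). Pore-forming voltage-gated subunits gave 2.79 for Kcnq5 (adjusted p = 0.0272), 1.95 for Kcnh7 (adjusted p = 0.0331) and 1.69 for Kcnb2 (adjusted p = 0.0380). The inward rectifier Kcnj2 had 1.48 (adjusted p = 0.0196). Kcnip2, a partner of A-type channels, had 3.65 (adjusted p = 0.0345), the sodium-activated Kcnt2 2.91 (adjusted p = 0.0278) and the tandem-pore Kcnk2 1.93 (adjusted p = 0.00946).

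Downward values were found in 7 of 74 members, of which 6 are given, against 5.42% of 14918 genes. Kcng4 had -4.47 (adjusted p = 0.00103), Kcnh2 -2.99 (adjusted p = 0.00405), Kcnd1 -1.53 (adjusted p = 0.0410) and Kcna1 -1 (adjusted p = 0.0410). Among inward rectifiers Kcnj14 had -2.25 (adjusted p = 0.0316) and Kcnj10 -1.71 (adjusted p = 0.00540). Kcnj10, Kcnj14, Kcnh2 and Kcnd1 were higher in KO at 1 month and lower in the library labelled KO at 4 months. The WT mean of Kcnj14 at 1 month was under 1 FPKM, so its values are a description.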

How the results depend on the processing

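Between KO and WT at 1 month, members called at 0.10 numbered 15 higher and 6 lower, 11 and 2 with a pseudocount of 0.1 FPKM, 9 and 2 with no filter, and 16 and 7 with the replicate number as a block. Calls at 0.05 under the block were 0 in either direction. Residuals of same-numbered WT and KO libraries correlated at 0.162, 0.025 and 0.037 over genes, and WT replicate 2 correlated no better with its own number than with KO replicate 1 (0.027). With groups of 3 libraries such residuals cannot decide whether the numbers pair the libraries. Leaving out each library in turn gave 0 to 24 higher and 0 to 19 lower at 0.05, and 0 to 28 and 0 to 21 at 0.10. For WT at 4 months against 1 month, where 0 members passed 0.05, a filter at 5 FPKM gave 9 higher and 1 lower there, all 8 libraries with 1 mean per group gave 7 and 1, and additive terms for age and genotype gave 3 and 2. At 0.10 the 15 higher became 9 with all 8 libraries and 7 with additive terms, and the 3 lower became 1 with libraries shifted to 1 median. Leaving out libraries gave 0 to 21 higher and 0 to 9 lower at 0.05, and 0 to 24 and 0 to 12 at 0.10. For the change of the genotype difference, a filter at 5 FPKM gave 9 upward, a pseudocount of 0.1 FPKM gave 4 downward, and leaving out libraries gave 6 to 21 upward and 4 to 17 downward. At 4 months a pseudocount of 0.1 FPKM gave 16 higher and 8 lower past 2 log2 units. The shares of all genes under most of these settings are not given here, so the counts show only how far they depend on processing.

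Signs turned for some members. With libraries shifted to 1 median, KO minus WT was 0.042 for Kcng4 and 0.0020 for Kcnn2, and with quantile normalization 0.034 and 0.017. Leaving out libraries gave -0.15 to 0.047 for Kcng4, -0.31 to 0.0071 for Kcne1l, -0.051 to 0.56 for Kcnu1 and -0.013 to 0.11 for Amigo1. With age, the shift gave 0.010 for Kcnh7, 0.063 for Kcna1 and 0.081 for Kcnq1ot1, quantile normalization gave 0.084 for Kcna1 and 0.073 for Kcnq1ot1, and leaving out libraries gave -0.11 to 0.030 for Kcna1 and -0.094 to 0.069 for Kcnq1ot1. The additive fit, which takes in the library labelled KO at 4 months, turned 3 called rises, to -0.65 for Kcnh2, -0.13 for Kcnk10 and -1.42 for Kcng4. It also turned Kcnh7 (0.87), Kcnj10 (-0.81), Kcnj12 (-0.41), Kcnk3 (-0.11), Kcnk1 (-0.32), Kcnc1 (-0.14), Kcna2 (-0.20), Kcnmb4 (0.27), Kcnrg (0.033), Kcnq1ot1 (0.11), Dpp10 (0.26), Hcn2 (-0.45), Rgs7 (0.26) and Hcn4 (-0.39). Causes other than the libraries each fit takes in were not tested. Precision rests on 3 libraries a group at 1 month and 1 at 4 months, and absolute depth is unknown.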

Other observations

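Of the 21 Kcn rows below 1 FPKM, Kcnh4, an ELK-type subunit, was at most 0.227 FPKM in 7 libraries and at 2.67 FPKM in the library labelled KO at 4 months. Kcnn4, the intermediate-conductance calcium-activated channel of microglia and blood cells, had values of 0, 0.0962 and 0 FPKM in WT and 0.292, 0.282 and 0.383 FPKM in KO at 1 month. Kcnk6, a weakly rectifying leak channel, was at 0.363, 0.474 and 0.432 FPKM in WT and 0.897, 0.948 and 0.787 FPKM in KO. These rows were below the limit and were not tested, and they were named after their values were seen.

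Some members set WT replicate 3 apart from its group. Kcnip2 was at 2.44, 2.16 and 7.69 FPKM, Kcnq5 at 1.45, 1.44 and 3.57 FPKM and Kcnk9 at 25.2, 26.2 and 41.8 FPKM in WT replicates 1, 2 and 3. Over the 74 members the median absolute log2 difference was 0.09 between WT replicates 1 and 2, 0.24 between WT replicates 1 and 3, and 0.08 between KO replicates 1 and 2. It was 0.45 between KO replicate 1 and the library labelled KO replicate 3, and 0.25 between that library and WT replicate 1.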
